A study of Mus musculus with 12 samples.

Results

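The integrated stress response is represented here by 9 genes chosen by name: Atf4, Ddit3, Xbp1, Trib3, Asns, Chac1, Atf5, Herpud1 and Ppp1r15a. All 9 were found among 21887 protein-coding genes on chromosomes 1 to 19, X and Y. For each gene, S9.6 intervals were collected that overlapped its RefSeq span (GRCm38) with 1 kb on both sides. S9.6 is an antibody that binds RNA-DNA hybrids, and an interval is a stretch of the genome called as a peak after immunoprecipitation with it. Such hybrids form R-loops, in which RNA pairs with one DNA strand and the other strand is left single.

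Several forms of stress, among them misfolded protein in the endoplasmic reticulum and lack of amino acids, activate kinases that phosphorylate the translation factor eIF2. General translation then falls, while the mRNA of the transcription factor ATF4 is translated better. ATF4 switches on genes for amino acid supply, for further transcription factors such as CHOP, and for feedback on the pathway itself. A parallel arm of the unfolded protein response acts through XBP1, which is of particular weight in secretory cells such as hepatocytes.

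The study covered 12 libraries, in 6 groups of 2, from wild-type HEPA1-6 cells, a mouse hepatoma line grown in culture, and from liver of wild-type mice, with C57/Bl6 named as the strain. No group was given a drug or stress treatment, per the labels, and the age and sex of the mice are not given in them. Each source had an S9.6 immunoprecipitate, an immunoprecipitate with RNase H1, an enzyme that degrades the RNA of hybrids, and an input. The values below come from 1 list of intervals per source, made from pooled immunoprecipitates and an input, so that no spread between replicates can be given and no difference between the lists has a replicate check. Libraries with RNase H1 were not analysed here.

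The HEPA1-6 list held 28717 intervals and the liver list 14908, with an unknown depth behind each. The authors' score runs from 10 upward on a scale that is not given, so scores were ranked within a list and not compared between lists. Among markers of the labelled cell types, 3 of 15 hepatocyte genes held an interval in HEPA1-6 and 2 of 15 in the liver list, against 9 and 8 of 10 cell cycle genes. Of 15 markers of other liver cells, 3 held an interval in each list. Over all protein-coding genes, 42% held one in HEPA1-6 and 29.7% in the liver list. In the list labelled liver, intervals were held by Alb (2, top score 54) and Hnf4a (5, top score 39), while the other markers of hepatocytes, among them Ttr, Apoa1, Cps1 and Pck1, held none; these were named after their values were seen. The part of this in the results below was not tested.

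Of the 9 genes, 7 held an interval in HEPA1-6 and 6 in the liver list, read against 42% and 29.7% of all protein-coding genes. The 6 genes with an interval in both lists were Atf4, Ddit3, Xbp1, Atf5, Herpud1 and Ppp1r15a, against 27.8% of protein-coding genes with one in both. Asns held intervals in HEPA1-6 alone, and Trib3 and Chac1 held none in either list. The members are short, between 2362 and 18045 bp, with a median of 5353 bp against 17169 bp for all protein-coding genes. Among the 8379 protein-coding genes of this length range, 43.8% held an interval in HEPA1-6, 30.8% in the liver list and 30% in both. The members were picked by name with results of these data in view, so these shares are descriptions of 9 genes.

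**Figure D1:**
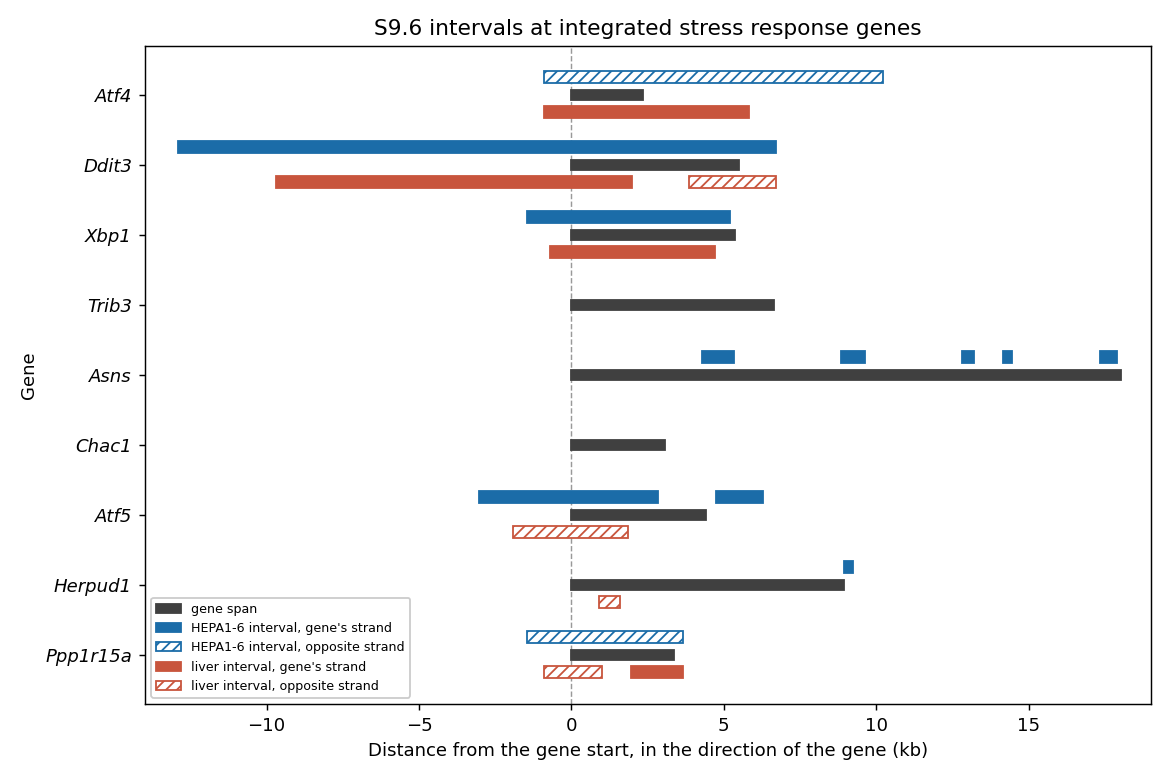
Position of every S9.6 interval within 1 kb of the 9 genes, as distance in kb from the gene start along the direction of the gene; dark bars are gene spans, blue bars HEPA1-6 intervals above them and red bars liver intervals below them, hatched where the interval carries the strand opposite to the gene. At Atf4, Ddit3, Xbp1, Atf5 and Ppp1r15a both lists span the gene start, whereas the 5 HEPA1-6 intervals at Asns lie inside the gene and Trib3 and Chac1 are empty.

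An interval came within 500 bp of the start of Atf4, Ddit3, Xbp1, Atf5 and Ppp1r15a in both lists, which is 5 of 9 genes. Among 17492 protein-coding genes with a strand in the RefSeq promoter table, 21.6% had one there in HEPA1-6, 14.4% in the liver list and 13% in both. In the length range of the members the shares were 25.1%, 17.3% and 15.7%. At Trib3, Asns, Chac1 and Herpud1 neither list had an interval within 500 bp of the start. The same 5 genes were counted at the start in both lists when only the start base itself was used. Within 1 kb of the start, Herpud1 joined them in the liver list, through an interval that began 891 bp into the gene, which made 6. The strand of the interval was not used in these counts. Within 500 bp, it was opposite to the gene at Atf4 and Ppp1r15a in HEPA1-6 and at Atf5 and Ppp1r15a in the liver list. Only Ddit3 and Xbp1 had an interval at the start on the strand of the gene in both lists.

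The bases before the start are shown for 2 of the 5 genes whose start lay inside an interval in both lists and for the 4 genes whose start was free in both. Ddit3, Atf5 and Ppp1r15a are not printed, while the motif counts below cover all 9 genes. The 250 bases upstream of each printed gene are given from RefSeq (GRCm38.p6), read 5′ to 3′ along the gene. Capitals mark matches to 5 motifs searched on both strands. These were TGATGNAA, the core of the C/EBP-ATF response element bound by ATF4 with a C/EBP partner; TGACGTCA, the cyclic AMP response element; ERSE (CCAAT and CCACG with 9 bases between) and ERSE-II (ATTGG and CCACG with 1 base between), elements of the unfolded protein response; and CCAAT, which is bound by NF-Y and lies within ERSE and, on the other strand, within ERSE-II. The sequences with a start inside an interval in both lists are:
Atf4 (chr15:80254934-80255183, plus strand): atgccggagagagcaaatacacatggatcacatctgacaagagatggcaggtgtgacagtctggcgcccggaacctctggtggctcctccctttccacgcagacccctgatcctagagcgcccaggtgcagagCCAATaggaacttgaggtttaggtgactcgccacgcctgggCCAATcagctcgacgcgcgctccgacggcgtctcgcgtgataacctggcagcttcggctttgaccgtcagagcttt
Xbp1 (chr11:5520391-5520640, plus strand): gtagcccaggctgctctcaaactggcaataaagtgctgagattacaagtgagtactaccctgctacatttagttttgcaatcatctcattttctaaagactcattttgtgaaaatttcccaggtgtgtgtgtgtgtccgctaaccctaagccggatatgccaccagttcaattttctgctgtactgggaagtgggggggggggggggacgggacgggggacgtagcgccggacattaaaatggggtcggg
The sequences with no interval within 500 bp of the start in either list are:
Asns (chr6:7693210-7693459, minus strand): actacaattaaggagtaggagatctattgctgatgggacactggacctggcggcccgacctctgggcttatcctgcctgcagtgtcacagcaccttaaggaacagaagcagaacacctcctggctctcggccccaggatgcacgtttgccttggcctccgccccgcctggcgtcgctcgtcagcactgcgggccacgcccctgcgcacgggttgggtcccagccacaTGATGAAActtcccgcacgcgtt
Chac1 (chr2:119350992-119351241, plus strand): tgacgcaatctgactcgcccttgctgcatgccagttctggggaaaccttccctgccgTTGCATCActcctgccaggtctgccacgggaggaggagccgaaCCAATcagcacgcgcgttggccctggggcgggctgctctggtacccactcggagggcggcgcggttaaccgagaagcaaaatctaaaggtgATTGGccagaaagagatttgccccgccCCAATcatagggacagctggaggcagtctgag
Herpud1 (chr8:94386179-94386428, plus strand): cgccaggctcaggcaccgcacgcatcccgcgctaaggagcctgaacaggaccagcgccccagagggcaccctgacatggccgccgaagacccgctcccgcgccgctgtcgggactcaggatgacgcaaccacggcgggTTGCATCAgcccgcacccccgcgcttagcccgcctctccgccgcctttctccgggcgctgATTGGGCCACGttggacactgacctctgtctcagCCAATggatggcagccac
Trib3 (chr2:152344061-152344310, minus strand): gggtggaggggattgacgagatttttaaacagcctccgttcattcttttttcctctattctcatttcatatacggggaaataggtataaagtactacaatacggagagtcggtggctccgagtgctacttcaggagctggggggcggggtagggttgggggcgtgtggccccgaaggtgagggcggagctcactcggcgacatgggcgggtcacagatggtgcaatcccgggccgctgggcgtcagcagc

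The core TGATGNAA was present between 250 bases before and 50 after the start in 4 of the 9 genes, and these were the 4 without an interval within 500 bp of the start. The motifs were chosen after the promoters had been seen, and the genes with earlier results of these data known. This division therefore only describes 9 genes. With 1 kb in place of 500 bp, Herpud1 would hold both the core and a liver interval. The core lay at -23 to -16 in Asns, at -193 to -186 in Chac1 and at -112 to -105 in Herpud1, counted from 0 at the gene start, in Chac1 and Herpud1 as TTGCATCA on the opposite strand. In Trib3 it lay at 14 to 21, past the bases shown. None of Atf4, Ddit3, Xbp1, Atf5 and Ppp1r15a held it in this window. Only the outer start of each gene was searched, and Atf5 has 2 annotated starts. Of 10583 promoters in the table that sit at the outer boundary of a protein-coding gene, 454 (4.29%) held the core. Of these 454, an interval came within 500 bp of the start in 8.81% in HEPA1-6 and 5.51% in the liver list, against 21.3% and 14.4% of all 10583. Promoters with the core had a median G+C content of 43.7%, against 54% for all. Within the G+C range of the members, 22.3% of 112 promoters with the core had an interval at the start in HEPA1-6 and 14.3% in the liver list, against 29.9% and 20% of 5053 promoters. This range is broad, so promoters were not matched on composition.

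The other motifs did not divide the genes in this way. CCAAT was found in 40.3% of promoters and in 4 members, Atf4, Ddit3, Chac1 and Herpud1. The cyclic AMP response element, found in 2.26% of promoters, was present in Ppp1r15a alone, at -12 to -5. Of the 239 promoters with it, 37.2% had an interval at the start in HEPA1-6 and 25.5% in the liver list, above the 21.3% and 14.4% of all promoters. For CCAAT these shares were 20.6% and 16.2%. Promoters with the cyclic AMP response element had a median G+C content of 59.7%, against 54% for all. Within the G+C range of the members, 173 promoters held this element. Of these, 39.3% had an interval at the start in HEPA1-6 and 28.3% in the liver list. All 5053 promoters of that range stood at 29.9% and 20%, and those with CCAAT at 30.7% and 24.1%. ERSE-II, found in 7 of 10583 promoters (0.0661%), was present in Herpud1 as ATTGGGCCACG at -52 to -42 and overlaps one of its CCAAT matches. ERSE, found in 18 promoters (0.17%), was in none of the members. An interval at the start was present in 3 and 2 of the 7 promoters with ERSE-II and in 5 and 7 of the 18 with ERSE, for HEPA1-6 and liver. A match describes these letters and does not show binding.

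Base composition did not separate the genes either. G+C content of the 300-base window ran from 51% (Xbp1) to 68% (Atf5) in the genes with an interval at the start and from 58.3% (Trib3) to 68.3% (Herpud1) in the others. GC skew, the excess of G over C on the strand of the gene divided by their sum, was highest in Trib3 (0.211) and Xbp1 (0.203), of which only Xbp1 held intervals. It was lowest in Herpud1 (-0.132). The skew of Trib3 was above that of 93.1% of promoters and the skew of Xbp1 above that of 92.2%. The run of G before the start of Xbp1 is visible in its sequence above. The observed over expected ratio of CpG was highest in Ppp1r15a (1.13, above 98.4% of promoters) and lowest in Xbp1 (0.535). Over all promoters, those with a HEPA1-6 interval at the start had a median G+C content of 61.8% and those without one 51%.

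**Figure D2:**
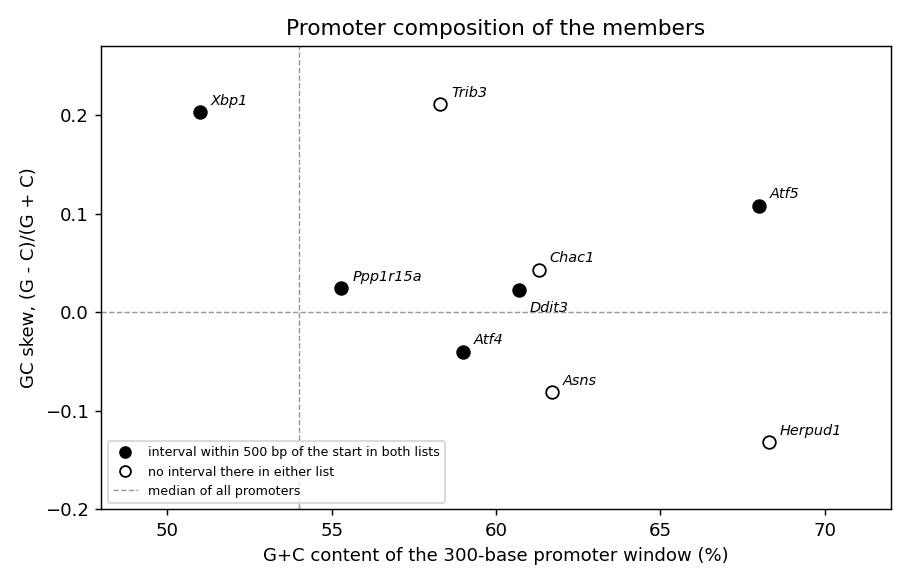
G+C content (%) against GC skew of the 300-base promoter window of each of the 9 genes, with filled points for genes with an interval within 500 bp of the start in both lists and open points for genes with none there; dashed lines are the medians of 10583 promoters, 54% and 0. Filled and open points are interspersed, with Trib3 (0.211) and Xbp1 (0.203) highest in skew.

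Atf4 encodes the transcription factor at the centre of the response. It held 1 interval in each list, and both began at the same base. In HEPA1-6 the interval spanned chr15:80254301-80265393 (11093 bp) and scored 373, which was rank 72 of 28717. In the liver list it spanned chr15:80254301-80260997 (6697 bp) and scored 198, which was rank 117 of 14908. The highest score at Atf4 was thus matched or passed at 44 of 9191 protein-coding genes with a HEPA1-6 interval and at 52 of 6491 with a liver interval, Atf4 itself included. Both intervals covered 100% of the gene, began 883 bp before its start and ran past its end, by 7848 bp in HEPA1-6 and by 3452 bp in the liver list. They reached into the neighbouring Rps19bp1, which lies on the opposite strand. The HEPA1-6 interval carried the minus strand, that of Rps19bp1, and the liver interval carried the plus strand, that of Atf4. A second liver interval in Rps19bp1, chr15:80263992-80265266 with a score of 20, lay 6447 bp past the end of Atf4 and carried the minus strand. Chromosome 15 held intervals at more of its protein-coding genes than the genome did, at 56.3% in HEPA1-6 and 54.4% in the liver list, and the part of this at Atf4 was not tested.

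Ddit3 encodes CHOP, a transcription factor of the C/EBP family that is induced by ATF4 and linked to cell death under lasting stress. Its single HEPA1-6 interval, chr10:127277872-127297507, was the widest at any of the 9 genes at 19636 bp and scored 66, above 94.5% of its list. It began 12921 bp before the gene start and also covered parts of Dctn2, Mbd6 and Mars1, so only 28% of it lay in Ddit3. The liver list had 2 intervals in the same stretch. One, chr10:127281110-127292770 with a score of 62, spanned the start on the strand of the gene and held 1978 bp of it. The other, chr10:127294643-127297507 with a score of 32, covered the end of Ddit3 and reached into Mars1, on the minus strand of Mars1. It ended at the same base as the HEPA1-6 interval. Between both liver intervals a part of the gene was free, and 66% of its span was covered, against 100% in HEPA1-6.

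Xbp1 encodes the factor that is switched on by splicing of its mRNA through IRE1. It gave the plainest pair of intervals, because no other gene was touched and both lists gave the strand of Xbp1. In HEPA1-6 the interval spanned chr11:5519194-5525834 (6641 bp, score 100, above 97.5% of its list). The liver interval, chr11:5519934-5525356 (5423 bp, score 59, above 93.9% of its list), lay wholly within it. They began 1447 bp and 707 bp before the start and covered 97% and 88.1% of the gene. A further HEPA1-6 interval, chr11:5526994-5529376 with a score of 21, began 1001 bp past the end of the gene and so fell just outside the window.

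Atf5 encodes a relative of ATF4 whose translation also rises when eIF2 is phosphorylated, and its start overlaps the spans of Nup62 and Il4i1b on the opposite strand. The HEPA1-6 interval over its start, chr7:44813824-44819676 (5853 bp, score 46), carried the minus strand of Atf5. In the liver list the interval there, chr7:44814795-44818560 (3766 bp, score 28), lay within it and carried the plus strand of Nup62 and Il4i1b. A second HEPA1-6 interval, chr7:44810366-44811907 (score 16), lay past the end of Atf5. The liver interval that overlapped it, chr7:44810837-44811128 with a score of 13, began outside the window, at 1128 bp from the gene. Intervals covered 64.4% of Atf5 in HEPA1-6 and 42.3% in the liver list.

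Ppp1r15a encodes GADD34, which directs a phosphatase to eIF2 and so restores translation. In HEPA1-6 a single interval, chr7:45522610-45527731 (5122 bp, score 103, above 97.6% of its list), covered 100% of the gene. The liver list had 2 intervals under it, chr7:45522610-45524321 (score 37) over the end of the gene and chr7:45525277-45527152 (score 27) over its start. The liver interval at the end carried the minus strand of Ppp1r15a. The liver interval at the start and the HEPA1-6 interval carried the plus strand, that of Plekha4, whose span begins just upstream, and of Tulp2, whose span overlaps the end of Ppp1r15a. The liver intervals covered 71.5% of the gene.

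Trib3 encodes a pseudokinase that is induced by ATF4 and CHOP and dampens their action. It held no interval in either list. The closest lay past its end in Rbck1, at 4641 bp in HEPA1-6 (score 32) and 4890 bp in the liver list (score 24). Upstream of Trib3 the closest began 48240 bp away in both lists. Chac1 encodes an enzyme that breaks down glutathione and also held no interval. The closest HEPA1-6 interval was 16386 bp away (score 23) and the closest liver interval 364048 bp away (score 15). Weak signal can fall short of the threshold behind the list, so both genes were without a called interval at an unknown depth.

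Asns encodes asparagine synthetase, a target of ATF4 in amino acid shortage, and is the longest of the genes at 18045 bp. It held 5 HEPA1-6 intervals, between 302 and 1064 bp wide, all within the gene and all on its strand. None overlapped another gene or a liver interval. The highest-scoring of them were chr6:7680007-7680398 (score 38) and chr6:7678741-7679042 (score 31), while the other 3 scored 14, above 12.8% of their list. The one nearest the start began 4272 bp into the gene. Together they covered 17.1% of Asns, and in the liver list the nearest interval was 11355 bp away and had no strand.

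Herpud1 encodes a membrane protein of the endoplasmic reticulum that takes part in the removal of misfolded proteins. It held 1 interval in each list, both near the bottom of the scores. The HEPA1-6 interval, chr8:94395384-94395659 (276 bp, score 12, above 2.32% of its list), lay past the end of the gene and covered 0% of it. The liver interval, chr8:94387320-94388018 (699 bp, score 14, above 6.27% of its list), began 891 bp into the gene and carried the opposite strand. The intervals did not overlap each other, so Herpud1 counts as held in both lists without a shared position.

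**Figure D3:**
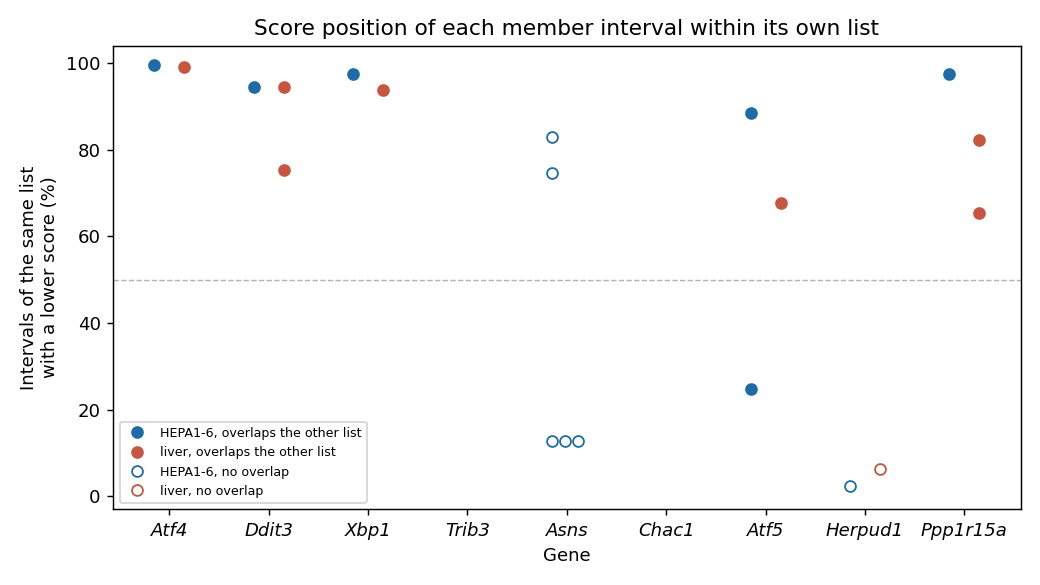
For each interval at the 9 genes, the share of intervals of the same list with a lower score (%), with blue points for HEPA1-6 and red points for liver, filled where the interval overlaps one of the other list; points of equal value are set side by side. Atf4 stands at 99.7% and 99.2%, Herpud1 at 2.32% and 6.27%, and the open points are those of Asns and Herpud1.

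Across the genes, 6 of 12 HEPA1-6 intervals overlapped a liver interval and 7 of 8 liver intervals overlapped a HEPA1-6 interval. In the whole lists the shares were 31.8% and 75.9%. Each HEPA1-6 interval without a liver counterpart lay in Asns or past the end of Herpud1. Intervals at the 9 genes were between 276 and 19636 bp wide in HEPA1-6 and between 699 and 11661 bp in the liver list. Their median widths were 1303 and 3315.5 bp, where the medians of the whole lists were 1091 and 881 bp.

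Coverage of the gene span was also counted. At least 50% of the span was covered in 5 of the 9 genes in HEPA1-6 and in 4 in the liver list, a level chosen after the values were seen. In HEPA1-6 these were the 5 genes with an interval at the start, and in the liver list Atf5, at 42.3%, fell short. Over all protein-coding genes this held for 9.31% and 3.41%, and in the length range of the members for 17.3% and 6.84%. Coverage was equal at Atf4, lower in the liver list at Ddit3, Xbp1, Atf5, Ppp1r15a and Asns, and higher in the liver list at Herpud1 alone.

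**Figure D4:**
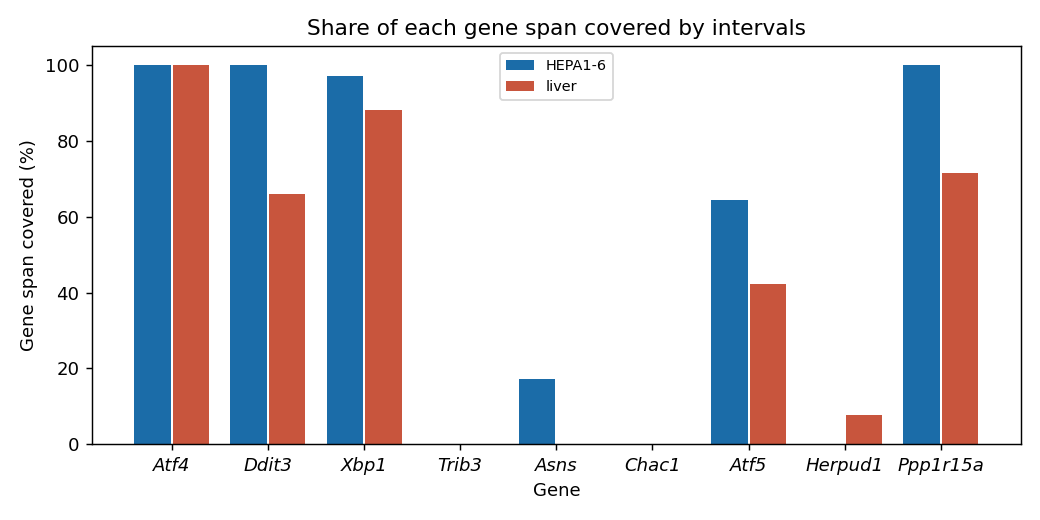
Share of each gene span covered by intervals (%), with blue bars for HEPA1-6 and red bars for liver. Atf4 is covered in full in both lists, Trib3 and Chac1 are at 0 in both, and Asns (17.1%) is covered in HEPA1-6 alone.

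The strand given to an interval by the authors was not always that of the gene. In HEPA1-6, 10 of 12 intervals carried the strand of the gene and 2 the opposite one. Of these 10, 5 lay in Asns, which held no liver interval. In the liver list 4 carried the strand of the gene and 4 the opposite one. Overlapping pairs were counted from the liver intervals within the windows of the genes. HEPA1-6 intervals at Atf4, Ddit3 and Atf5 each overlapped a further liver interval beyond the windows, which was left out. The pairs left out had the same strand at Atf4 and Atf5 and opposite strands at Ddit3. Of the 7 pairs counted, 4 had opposite strands, at Atf4, Ddit3, Atf5 and Ppp1r15a, against 14% of all overlapping pairs with a strand. All 4 of these pairs involve an interval that touches a neighbouring gene, and so do the same-strand pairs at Ddit3 and Ppp1r15a. Only the pair at Xbp1 does not. Over all pairs in which an interval touches 2 or more genes, 29.5% of 3356 had opposite strands. Intervals over 1 gene of known strand and no other carried the strand of that gene in 93.4% of cases in HEPA1-6 and 90.6% in the liver list. How the strand was given is not stated in the sources used here. Where neighbours overlap, an interval cannot be assigned to either gene from its position.

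The wider pathway was followed in 5 lists with 114 genes, none of them among the 9. Of these, 97 held an interval in HEPA1-6 (85.1%) and 72 in the liver list (63.2%), 71 of them in both, against 42% and 29.7% of all protein-coding genes. Each list was above those shares in both sources. The lists were chosen with earlier results of these data known, so these shares are descriptions. Median gene length was 41016 bp for stress sensors and the eIF2 cycle and 27792 bp for aminoacyl-tRNA synthetases. It was 24732.5 bp for amino acid supply and redox targets, 14604 bp for unfolded protein response genes and 10645 bp for stress-induced regulators. All protein-coding genes had a median of 17169 bp, and no share matched on length was computed. Many genes of the 5 lists are expressed in most tissues, and how far that bears on the shares was not tested.

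Stress sensors and factors of the eIF2 cycle held an interval in 20 of 22 cases in HEPA1-6 and 13 of 22 in the liver list. The highest scores were at Eif2s2, the beta subunit of eIF2 (109 and 49), at Gcn1, an activator of the kinase GCN2 (100 and 44), and at Ppp1ca, a catalytic subunit of protein phosphatase 1 (70 and 39), each given for HEPA1-6 and then liver. Eif2b4 was the one gene of this list without an interval in either.

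Amino acid supply and redox targets of ATF4 held an interval in 17 of 22 cases and 11 of 22 cases, respectively. Slc3a2, the heavy chain of amino acid transporters, scored 164 in HEPA1-6 and 59 in the liver list. Slc38a2, a transporter of neutral amino acids, scored 135 and 88. Psat1, an enzyme of serine synthesis, reached 88 in HEPA1-6, and Slc7a1, a transporter of cationic amino acids, reached 60 in the liver list. Psph, Slc7a3, Slc6a9, Cth and Cbs held none.

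Stress-induced regulators held an interval in 17 of 22 cases in HEPA1-6 and 14 of 22 in the liver list. Sqstm1, an autophagy receptor, scored 283 and 106. Ddit4, an inhibitor of mTORC1, scored 251 and 108, and the pseudokinase gene Trib1 scored 224 and 139. Trib2 held none, like Trib3, so of the Tribbles genes Trib1 alone held intervals. Nupr1, Fgf21, Stc2 and Atg12 also held none.

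Aminoacyl-tRNA synthetases held an interval in 21 of 21 cases in HEPA1-6 and 16 of 21 in the liver list. The highest scores were at Gars, Farsa and Cars, with 98, 87 and 71 in HEPA1-6 and 54, 47 and 85 in the liver list. Sars tied with Cars at 71 in HEPA1-6. The enzymes of this list are long genes, with a median of 27792 bp, and an interval within 500 bp of the start was found in 4 of the 14 with a strand in HEPA1-6 and in 1 of 14 in the liver list, where all protein-coding genes stood at 21.6% and 14.4%.

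Unfolded protein response genes held an interval in 22 of 27 cases in HEPA1-6 and 18 of 27 in the liver list. Canx, which encodes the chaperone calnexin, scored 161 and 122, and Derl2, of the degradation machinery of the endoplasmic reticulum, scored 128 and 63. Syvn1, a ubiquitin ligase of that machinery, reached 96 in HEPA1-6, and Hspa5, which encodes the chaperone BiP, reached 55 in the liver list. Sdf2l1, Creld2, Sel1l, Ero1b and Wfs1 held none. An interval came within 500 bp of the start in 12 of the 23 genes with a strand in HEPA1-6 and in 13 of 23 in the liver list, read against the same 21.6% and 14.4%. In the other lists these counts were 6 and 3 of 17 for stress sensors and the eIF2 cycle, 6 and 4 of 17 for amino acid supply and redox targets, and 11 and 9 of 17 for stress-induced regulators.

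**Figure D5:**
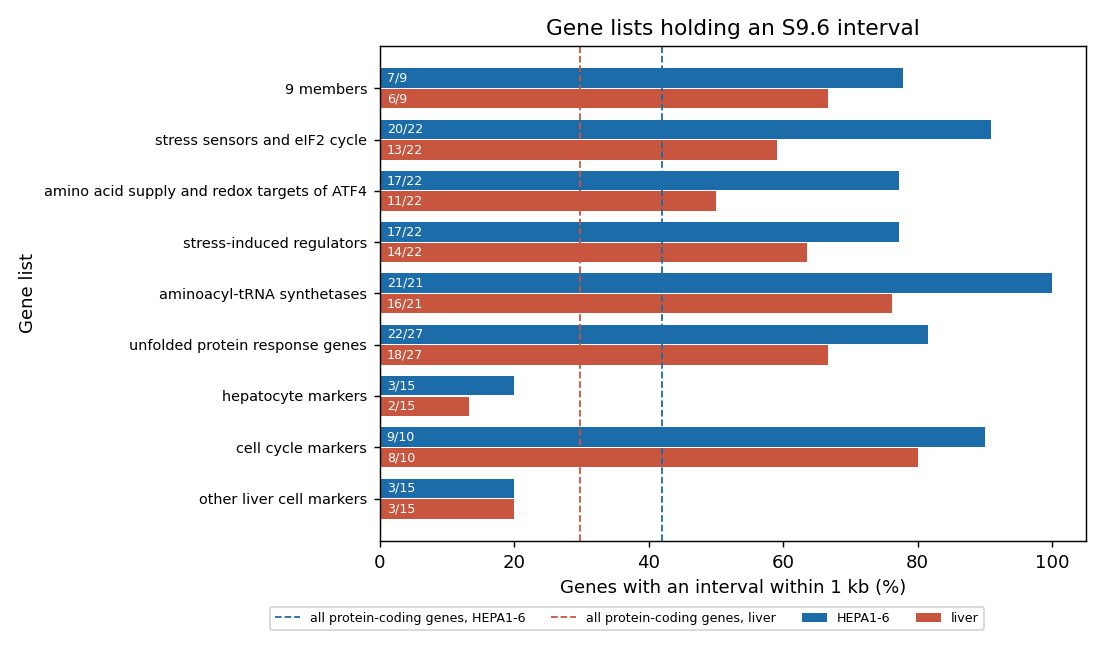
Share of the genes of each list with an interval within 1 kb (%), with blue bars for HEPA1-6 and red bars for liver, the counts printed in the bars, and dashed lines for all protein-coding genes at 42% and 29.7%. All 5 pathway lists lie above the lines and the hepatocyte and other liver cell markers lie below them.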

How the data were processed

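The labels name 12 libraries, and the submitters' processing notes list the build mm10 and, with no role or order, CASAVA 1.8.2, cutadapt, Bowtie2, bedtools, SAMtools and MACS2. The deposited data are 1 list of intervals per source, whose names, written by the authors, say that merged immunoprecipitates were compared with an input. Thresholds, the libraries merged and the origin of the strand are not given in the sources used here. Each interval has a deposited score, a whole number from 10 upward whose scale is not given. The other deposited values are the start and end of each interval. Positions were read as GRCm38 and are printed 1-based.

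Gene boundaries came from the RefSeq table of GRCm38.p6, which gives no exons, so no exon, intron or untranslated region is named. Gene strands and promoters came from the RefSeq promoter table. Strands were known for 17492 protein-coding genes, and 10583 promoters at the outer gene boundary were used. An overlap of 1 bp counted. The interval functions were checked on simulated data. No test between sources was made, since there is 1 list per source, and depth and counting precision are unknown. Python 3.11.15, pandas 2.3.3 and numpy 2.4.6 were used.

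All 9 members are named. In each pathway list the 3 highest-scoring genes per source are named, ties taken in alphabetical order, and the genes without an interval where these are 5 or fewer. The members and lists were chosen with earlier results of these data known, and the motifs after the promoters had been seen. Alternatives for flank, score, overlap, list length and strand are given in the closing section.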

Additional observations from a re-analysis of the deposited data

How the results depend on the processing

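Across 54 alternatives for 11 counts, 48 stayed within 1.5 times the reported count and 6 moved. A flank of 5 kb raised the HEPA1-6 intervals at the members from 12 to 22, by construction. The higher-scoring 50% of each list and equal numbers of intervals in both lists each left 7. With the strand of the gene required, the liver intervals fell from 8 to 4 and the members held in both lists from 6 to 2. With an overlap of 50% of both intervals, 4 rather than 7 liver intervals at the members overlapped a HEPA1-6 interval. Equal numbers leave the liver list as it is, so that setting is no check on counts in that list alone. No paired analysis was possible because replicates had been merged before intervals were called, and no replicate could be left out. The unknown depth limits every statement that a gene held no interval.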

Other observations

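Families of the eIF2 cycle are given here with their values: the kinases that phosphorylate eIF2, the subunits of eIF2 itself and those of eIF2B, which recharges it. They were singled out after their values were seen, and over all protein-coding genes 42% held an interval in HEPA1-6 and 29.7% in the liver list. All 4 kinase genes held an interval in HEPA1-6, with top scores between 14 and 58, whereas in the liver list Eif2ak1 (score 35) and Eif2ak2 (score 14) did and Eif2ak3 and Eif2ak4 did not. Of the 5 subunit genes of eIF2B, 4 held an interval in HEPA1-6, with top scores between 13 and 47, and 0 in the liver list. Of 3 subunit genes of eIF2, all 3 held one in HEPA1-6 and only Eif2s2 in the liver list. The liver list is the shorter one, with 14908 intervals against 28717, and no difference was tested. The kinase genes were 32069 to 86652 bp long, the eIF2B genes 5582 to 67454 bp and the eIF2 genes 21497 to 24939 bp. The part of gene length in these counts was not tested. Dnajc3, which encodes an inhibitor of the kinases, was the one gene of the pathway lists with an interval in the liver list alone (score 32).

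Interval edges coincided to the base in 3 of the 7 overlapping pairs counted at the 9 genes: the lower edge at Atf4, the upper edge at Ddit3 and the lower edge at Ppp1r15a. No edge was shared in the further pairs at Atf4, Ddit3 and Atf5, whose liver interval lay beyond the windows. Over all 11455 overlapping pairs of both lists, 46.1% shared at least 1 edge to the base.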
